A study of Homo sapiens with 4 samples.

Results

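The genes that license replication origins were followed after treatment with the compound HJ-4 in HCT116, an established line of human colorectal carcinoma cells. The set held 10 genes, MCM2, MCM3, MCM4, MCM5, MCM6, MCM7, MCM10, ORC1, CDC6 and CDT1, which were listed by name for their role. The rule sets no threshold on a measured value, but the list was drawn up with earlier results of these data known. All 10 were found among the 20263 gene IDs of the deposited count table, and all 10 were among the 14044 genes with enough counts to be tested. Wild-type HCT116 cells had received either the vehicle DMSO at 0.1% for 24 h or HJ-4 at 32 µM for 24 h, and 2 libraries of total RNA were analysed for each condition. The dose is that of the labels and of the study's methods, and a figure legend of the study gives a lower one. The study's methods call the replicates biological, in triplicate, while the labels do not say whether the 2 libraries used here were made from separate cultures, so that p-values rest on a spread that may be technical.

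Before a cell can copy its DNA, each origin of replication is loaded with the MCM helicase in the G1 phase, a step called licensing. The origin recognition complex, of which ORC1 is the largest subunit, binds the origin and recruits CDC6, and CDT1 then delivers the hexamer of MCM2 to MCM7 so that it encircles the DNA. MCM10, which is not part of the hexamer, joins when the origin fires and helps to activate the helicase. Most of these genes are known targets of E2F transcription factors and are transcribed most strongly around the entry into S phase, which is why their transcripts are widely used as signs of proliferation.

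The libraries held 29769568 to 34359889 counts, and the 10 genes had between 233 and 7479 counts in a library. Levels are given as CPM, counts of a gene relative to the size of its library after TMM scaling (trimmed mean of M values), and fold changes are HJ-4 over DMSO. The median log2 fold change of all tested genes was 0.00. Of the 8 epithelial marker genes, 6 reached 1 CPM, with sums of 3981 to 4474 CPM, while VIL1 was near 0 and CDX1 at 0 counts. The sums of the marker lists for other cell types in the DMSO and the HJ-4 libraries were 34.03 to 40.1 and 46.4 to 50.7 CPM for leukocytes, where CD68 alone reached 1 CPM and CD3E was at 0, 59.7 to 63.1 and 58.9 to 61.1 CPM for fibroblasts, where COL1A1 alone did and COL1A2 and DCN were at 0, and at most 1.44 CPM for endothelium.

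Of the 10 licensing genes, 9 were lower in both HJ-4 libraries than in both DMSO libraries, by 22.6% to 44.5%, and MCM6 was the exception. Over all tested genes, 25.6% showed the same order of the 4 libraries. The same 9 genes had an unadjusted p under 0.05 on the lower side in edgeR's quasi-likelihood test, which 7.93% of all tested genes had as well. None of the 10 passed an adjusted p of 0.05 in that test, in which 0.00712% of all tested genes, a single gene, were called lower, and the smallest adjusted p among the licensing genes was 0.098. In DESeq2's Wald test, 5 of the 10 were called lower (MCM2, MCM5, MCM7, ORC1 and CDT1), against 1.76% of all tested genes. The median log2 fold change of the 10 genes was -0.47.

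**Figure D1:**
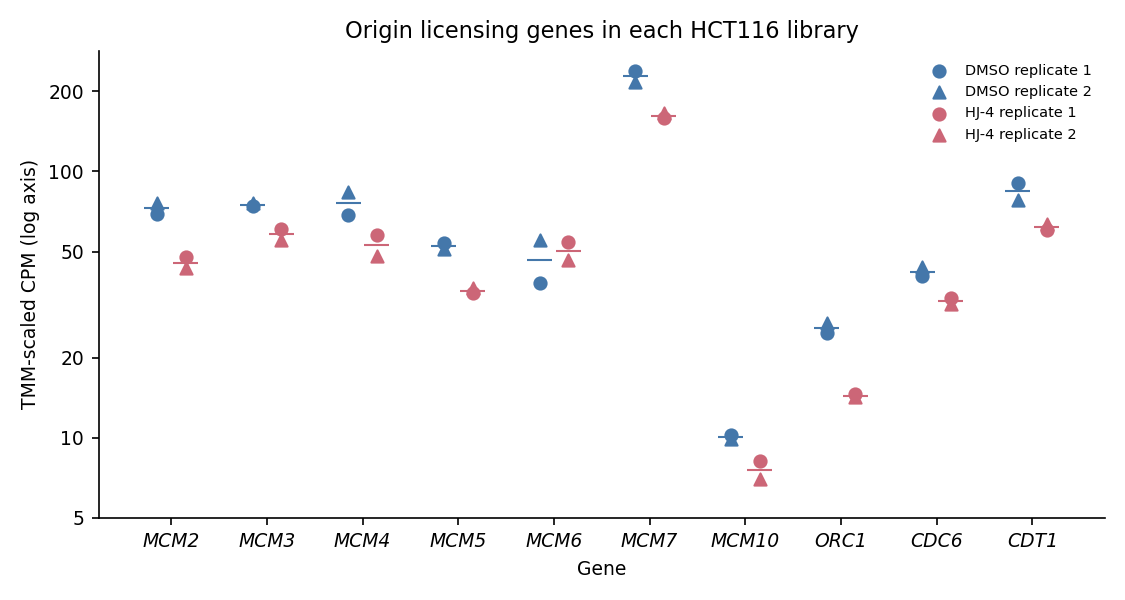
Levels of the 10 licensing genes in each library, as TMM-scaled CPM on a log axis, with blue points for the 2 DMSO libraries, red points for the 2 HJ-4 libraries and short lines for the mean of each group. The red points lie below the blue points in 9 of the 10 genes, an order that 25.6% of all tested genes showed. In MCM6 the groups overlap, with 38.0 and 55.1 CPM in DMSO and 54.3 and 46.5 CPM in HJ-4.

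Among the factors that load the helicase, ORC1 (chr1:52372829-52404423, minus strand, GRCh38), an ATP-binding subunit of the origin recognition complex, had the largest difference of the 10 genes. ORC1 read 24.8 and 27.0 CPM with DMSO against 14.6 and 14.2 CPM with HJ-4. The groups lay far apart beside the spread within them, with a gap of 0.77 on the log2 scale between the nearest libraries. The log2 fold change was -0.85 ± 0.10 (SE), with an edgeR adjusted p of 0.098 and a DESeq2 adjusted p of 1.2e-05. Of all tested genes, 1.64% had a log2 fold change as low as that of ORC1 or lower.

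CDT1 (chr16:88803789-88809258, plus strand), the chaperone that brings the MCM hexamer to the origin and is held in check by geminin, was at 90.6 and 78.3 CPM in DMSO and at 60.3 and 63.6 CPM in HJ-4. The highest HJ-4 library stayed under the lowest DMSO library by 0.30 on the log2 scale. Its log2 fold change was -0.45 ± 0.10 (SE), with an edgeR adjusted p of 0.20 and a DESeq2 adjusted p of 0.027. CDC6 (chr17:40287879-40304657, plus strand), the ATPase that works with ORC1 in loading, was at 40.5 and 43.7 CPM in DMSO and at 33.5 and 31.7 CPM in HJ-4. The groups of CDC6 did not overlap either, but the difference was smaller than that of ORC1, at a log2 fold change of -0.37 ± 0.10 (SE) and an edgeR adjusted p of 0.23.

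The 6 subunits of the MCM hexamer are related ATPases encoded on 6 different chromosomes. In both HJ-4 libraries 5 of them were lower, an order that 25.6% of all tested genes showed. MCM2 (chr3:127598410-127622436, plus strand), a subunit that also binds histones, was at 69.3 and 76.3 CPM in DMSO and at 47.6 and 43.4 CPM in HJ-4. This was the largest difference within the hexamer, with a log2 fold change of -0.68 ± 0.10 (SE), an edgeR adjusted p of 0.12 and a DESeq2 adjusted p of 4.8e-05. MCM5 (chr22:35400134-35425431, plus strand), which sits beside MCM2 at the gate through which DNA enters the ring, was at 53.8 and 51.3 CPM in DMSO and at 34.8 and 36.6 CPM in HJ-4. Replicates of MCM5 lay close together in both conditions, and the log2 fold change was -0.56 ± 0.09 (SE), with an edgeR adjusted p of 0.13 and a DESeq2 adjusted p of 0.00047.

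MCM7 (chr7:100092233-100101940, minus strand), part of the catalytic core with MCM4 and MCM6, was the most abundant of the 10 genes, at 238 and 218 CPM in DMSO and 158 and 166 CPM in HJ-4. The log2 fold change of MCM7 was -0.49 ± 0.09 (SE), with an edgeR adjusted p of 0.15 and a DESeq2 adjusted p of 0.00036. The gene also carries the microRNA genes MIR106B, MIR93 and MIR25 on its own strand, which have no row in the count table. It shares 392 exonic bases with AP4M1 on the opposite strand, a subunit of an adaptor complex for vesicle transport, and whether the reads were counted by strand is not given. AP4M1 was at 15.5 and 15.1 CPM in DMSO and at 15.4 and 16.2 CPM in HJ-4, a level far below that of MCM7 with no separation of the groups. MCM2 likewise shares 1113 exonic bases with a long non-coding RNA gene on the opposite strand, which has no row in the count table.

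MCM3 (chr6:52264014-52284881, minus strand), the neighbour of MCM5 in the ring, was at 74.0 and 76.1 CPM in DMSO and at 61.0 and 55.2 CPM in HJ-4. It had the smallest difference among the 5 lower subunits, with a log2 fold change of -0.37 ± 0.09 (SE) and an edgeR adjusted p of 0.21. MCM4 (chr8:47960185-47978160, plus strand), a main target of the DDK kinase when origins fire, was at 68.5 and 83.7 CPM in DMSO and at 58.0 and 48.3 CPM in HJ-4. Both conditions were more spread in MCM4 than in MCM2, MCM3, MCM5 and MCM7, and the nearest libraries of the groups were 0.24 apart on the log2 scale, the smallest gap of the 9 lower genes. The log2 fold change of MCM4 was -0.52 ± 0.15 (SE), with an edgeR adjusted p of 0.24.

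MCM6 (chr2:135839626-135876443, minus strand), the third subunit of the catalytic core, stood apart from the rest of the hexamer. It was at 38.0 and 55.1 CPM in DMSO and at 54.3 and 46.5 CPM in HJ-4. The first DMSO library was the lowest and the second DMSO library the highest of the 4, so that both HJ-4 libraries fell between them. The log2 fold change was 0.12 ± 0.20 (SE), with an edgeR adjusted p of 0.81, and its direction depended on the DMSO library used, being -0.13 without the first and 0.41 without the second. MCM6 had the widest DMSO spread of the 10 genes, 0.54 on the log2 scale against a median of 0.13. Whether MCM6 differed from the other subunits in its response to HJ-4 was not tested.

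MCM10 (chr10:13161558-13211110, plus strand), which acts after loading and was the least abundant of the set, was at 10.3 and 9.90 CPM in DMSO and at 8.19 and 6.98 CPM in HJ-4. The HJ-4 libraries were both lower, with more spread between them than between the DMSO libraries. Its log2 fold change was -0.41 ± 0.14 (SE), with an edgeR adjusted p of 0.28 and a DESeq2 adjusted p of 0.38.

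**Figure D2:**
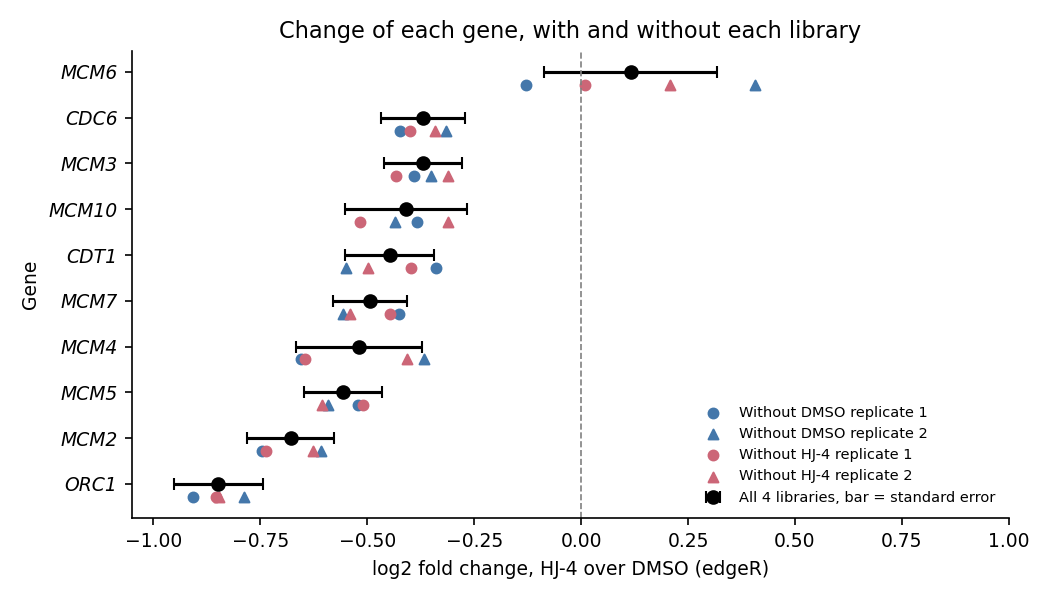
Log2 fold changes of the 10 licensing genes, HJ-4 over DMSO, with black points and bars for the estimate from all 4 libraries ± SE and smaller marks for the estimates with 1 library left out. The estimates of 9 genes stay below 0 whichever library is left out, as the order of their libraries all but requires. That of MCM6 lies between -0.13 and 0.41.

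The 9 lower genes kept a negative fold change in each fit that left out a library. This was close to fixed in advance, since both HJ-4 libraries already lay below both DMSO libraries. The number with an unadjusted p under 0.05 depended on the library left out. It was 8 without the first DMSO library, where 7.62% of all tested genes were lower at that p, and 8 without the second, where 8.90% were. It was 7 without the first HJ-4 library, where 3.26% were, and 5 without the second, where 4.50% were. In bulk RNA, fewer cells in the phase that expresses these genes and less RNA per cell cannot be told apart.

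To set the genes side by side, levels were divided by the length of an annotated transcript of each gene. The annotation used for counting is not given and base composition was not corrected for. The order and the shares that follow are therefore approximate. In DMSO the order was MCM7 (92.4 ± 5.9 CPM per kb, SD, n = 2), CDT1 (31.7 ± 3.3), MCM3 (24.5 ± 0.49), MCM2 (21.2 ± 1.5), MCM4 (18.7 ± 2.6), MCM5 (15.2 ± 0.50), MCM6 (12.4 ± 3.2), CDC6 (9.22 ± 0.49), ORC1 (8.31 ± 0.49) and MCM10 (2.22 ± 0.054). Of the neighbours in that order, MCM2 and MCM4 alone had overlapping libraries. The order in HJ-4 was the same apart from MCM6, which moved from rank 7 to rank 4 at 13.4 ± 1.5 CPM per kb, where its libraries overlapped those of MCM2 at 13.2 ± 0.86, and those of MCM2 overlapped those of MCM4 at 13.1 ± 1.7.

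The transcripts of the 6 hexamer subunits were far from equal in level although the subunits are present once each in the ring. The sum over MCM2 to MCM7 was 183 and 185 CPM per kb in DMSO and 137 and 133 CPM per kb in HJ-4. MCM7 made up 52.65% and 47.6% of that sum in DMSO and 46.9% and 50.6% in HJ-4, so that its share overlapped between the conditions. The share of MCM6 was 5.52% and 7.91% in DMSO and 10.6% and 9.34% in HJ-4, higher in both HJ-4 libraries. The level of MCM6 itself overlapped, at 10.1 and 14.7 CPM per kb in DMSO and 14.5 and 12.4 in HJ-4. The sum without MCM6 was 173 and 171 CPM per kb in DMSO and 122 and 120 in HJ-4. The share of MCM2 was 11.0% and 11.99% in DMSO and 10.1% and 9.52% in HJ-4, lower in both HJ-4 libraries. The exact permutation test cannot give a p below 0.333 with 2 libraries against 2, and none was run on the shares. The sum of the loaders ORC1, CDC6 and CDT1 was 50.8 and 47.6 CPM per kb in DMSO and 34.7 and 35.4 CPM per kb in HJ-4.

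**Figure D3:**
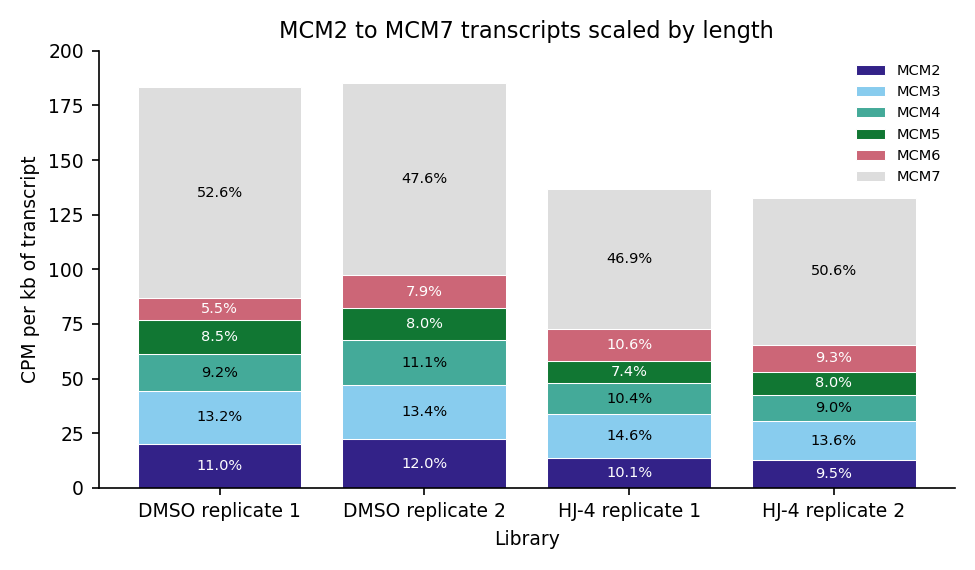
Length-scaled levels of the MCM2 to MCM7 transcripts in each library (CPM per kb) and the share of each subunit in their sum (%). The sum is 183 and 185 CPM per kb with DMSO and 137 and 133 CPM per kb with HJ-4. The MCM6 share is 5.52% and 7.91% in DMSO against 10.6% and 9.34% in HJ-4, while the MCM6 level itself overlaps between the conditions.

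The promoters were searched for letters that E2F factors are known to favour, since the genes are usually described as E2F targets. The RefSeq promoter table (GRCh38.p14, from 250 bases before to 50 bases after each start) held 8 of the 10 genes, without MCM4 and MCM5. The letters searched on both strands were TTTCCCGC, TTTCGCGC, TTTGCCGC and TTTGGCGC. Of these, TTTGGCGC and TTTCGCGC can each share bases with the reverse complement of TTTCGCGC. At least 1 match was found in 6 of the 8 genes (MCM2, MCM3, MCM6, MCM7, CDC6 and CDT1). Counted by window, since MCM7 has 3, this was 6 of 10 windows, against 3.31% of the 35116 promoters in the table and 4.10% of the 22198 promoters of protein-coding genes. The member windows had 55.3% to 74.3% GC, and the compared promoters were not matched for base composition, so the shares are a description. The windows of ORC1 and MCM10 held none of these letters, and that of MCM6 held 4 matches, which share bases in pairs. The 2 matches of MCM2 share bases as well. Whether the matches bear on the fold changes was not tested. In MCM2 and CDC6 the matches lay after the start, at positions 3 and 7 and at position 8, counted from 1 at the first transcribed base and by negative numbers before it. A match is a description of the letters and not a binding site, and no match says only that these letters are not in the window.

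Matches before the start are printed with their flanks for MCM3, MCM6 and CDT1, with capitals for the matched letters. Each is written 5′ to 3′ on the strand of its gene, at chr6:52284897-52284928 (minus strand) for MCM3, chr2:135876510-135876607 (minus strand) for MCM6, and chr16:88803742-88803773 (plus strand) for CDT1.
MCM3: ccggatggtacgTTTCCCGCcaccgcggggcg
MCM6: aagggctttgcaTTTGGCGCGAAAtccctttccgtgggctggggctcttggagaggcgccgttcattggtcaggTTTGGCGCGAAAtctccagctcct
CDT1: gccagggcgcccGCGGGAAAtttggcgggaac
In MCM6 the run TTTGGCGCGAAA occurred in 2 copies, at positions -152 and -90 from the start, and each copy holds a match on either strand that shares its middle letters. In MCM3 the match shown began at position -174, with a further one at -4 across the start. In CDT1 it began at -35 on the opposite strand. In MCM7, which has 3 windows in the table, the matches lay in 1 of them, at -187 on the opposite strand and at -9, within the span that GENCODE gives to the gene and to AP4M1, and are not printed.

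Other letters known from cell cycle promoters were searched in the same windows. CCAAT, the letters bound by NF-Y, was found on either strand in 6 of the 8 genes, or 8 of the 10 windows, and in 34.6% of all promoters. The CHR letters TTTGAA or TTCGAA, which mark many genes expressed late in the cycle, were found in 1 of the 10 windows, that of MCM6, and in 16.4% of all promoters.

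Among the other genes of origin recognition, the fold changes had both directions. Of the 6 genes for the other subunits of the origin recognition complex and its partner LRWD1, 0 passed the adjusted threshold in edgeR or DESeq2, 0 were lower at an unadjusted p under 0.05 and 1 was higher, where 7.93% of all tested genes were higher at that p. With total counts, 1 of the 6 was lower at that p, where 9.88% of all tested genes were. The gene that was higher was ORC2, a core subunit, at 35.1 and 35.1 CPM in DMSO and 41.5 and 41.2 CPM in HJ-4, with a log2 fold change of 0.24 ± 0.09 (SE) and an edgeR adjusted p of 0.31. ORC6, the subunit outside the core ring, was at 17.5 and 15.1 CPM in DMSO and at 8.04 and 14.5 CPM in HJ-4, lower in both HJ-4 libraries with a wide spread between them. LRWD1, which stabilises the complex on chromatin, had a log2 fold change of -0.25 ± 0.10 (SE) and an edgeR adjusted p of 0.33. The median log2 fold change of these 6 genes was -0.08.

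Of the 12 genes that control loading, 2 were lower at an unadjusted p under 0.05, both called lower by DESeq2 and neither by edgeR, and the median log2 fold change was -0.12. Over all tested genes, 7.93% were lower at that p and 1.76% were called lower by DESeq2. CCNF, the cyclin F that marks CDC6 for degradation, was at 99.2 and 88.4 CPM in DMSO and at 62.9 and 66.6 CPM in HJ-4, with a log2 fold change of -0.53 ± 0.10 (SE) and an edgeR adjusted p of 0.15. FZR1, the CDH1 activator of the anaphase-promoting complex, which also acts on CDC6, was at 90.4 and 85.7 CPM in DMSO and at 69.4 and 70.5 CPM in HJ-4, with a log2 fold change of -0.33 ± 0.08 (SE) and an edgeR adjusted p of 0.20. Neither gene had overlapping groups. KAT7, the histone acetyltransferase that assists loading, had a log2 fold change of -0.22 ± 0.09 (SE) and an edgeR adjusted p of 0.34. GMNN, the inhibitor geminin, named after its value was seen because it binds CDT1, had a log2 fold change of -0.18 ± 0.11 (SE) and an edgeR adjusted p of 0.47. Without the first HJ-4 library, the median of the 12 genes was -0.09.

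Of 14 genes that turn a licensed origin into a fork, 7 were lower in both HJ-4 libraries than in both DMSO libraries. Over all tested genes, 25.6% showed that order. A negative log2 fold change was found in 12 of the 14, with a median of -0.28 against 0.00 over all tested genes. At an unadjusted p under 0.05 in edgeR, 5 were lower, and 3 were called lower by DESeq2 and 0 by edgeR. The shares over all tested genes were 7.93% lower at that p and 1.76% called lower by DESeq2. CDC45, the partner that turns the MCM ring into the active helicase, was at 14.8 and 15.6 CPM in DMSO and at 9.16 and 8.57 CPM in HJ-4, with a log2 fold change of -0.78 ± 0.12 (SE) and an edgeR adjusted p of 0.12. GINS1 and GINS2, subunits of the complex that joins with CDC45, had log2 fold changes of -0.57 ± 0.13 (SE) and -0.61 ± 0.16 (SE). RECQL4, a helicase needed for firing, was at 77.3 and 76.0 CPM in DMSO and at 53.4 and 55.2 CPM in HJ-4, and TICRR, which brings CDC45 to the origin, had a log2 fold change of -0.35 ± 0.10 (SE). The edgeR adjusted p of these 5 genes ranged from 0.12 for CDC45 to 0.24 for TICRR. The median of the 14 genes was -0.12 without the second DMSO library and -0.22 without the second HJ-4 library.

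The MCM genes outside licensing had small differences. MCM8 and MCM9, which form a helicase for recombination repair, had log2 fold changes of -0.18 ± 0.11 (SE) and 0.01 ± 0.11 (SE), and MCMDC2, a relative known from meiosis, had one of 0.15 ± 0.21 (SE) at 1.73 to 2.06 CPM. None of the 3 had an unadjusted p under 0.05 in edgeR or was called by DESeq2.

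Genes that act later in the cycle, or that control entry into S phase, are given for comparison, and differences between lists were not tested. Of 25 genes of the replication fork, 22 had a negative log2 fold change, 11 were lower at an unadjusted p under 0.05 and 7 were called lower by DESeq2, with a median of -0.24. For this list and those that follow, the shares over all tested genes were 7.93% lower and 7.93% higher at that p. DESeq2 called 1.76% of all tested genes lower. The fork genes with the smallest p were FEN1, the flap endonuclease (-0.85 ± 0.10, SE), and POLE, the catalytic subunit of the leading strand polymerase (-0.61 ± 0.08, SE). The median of the 25 fork genes was -0.36 without the first DMSO library and -0.25 without the second HJ-4 library. Of 11 E2F factors and cyclins of S phase, 3 were lower at an unadjusted p under 0.05 and 2 in DESeq2, with a median of -0.06, among them CCNE2, a cyclin E (-1.31 ± 0.17, SE), and E2F2, an activator of licensing genes (-0.78 ± 0.11, SE). Of 15 genes of mitosis, 2 had an unadjusted p under 0.05 on the lower side and 1 on the higher side, with a median of -0.10, the lower ones being MKI67, the Ki-67 protein (-1.20 ± 0.18, SE), and AURKB, the Aurora B kinase (-0.46 ± 0.09, SE), both called by DESeq2. The median of these 15 genes depended on the DMSO library used, being -0.30 without the first and -0.07 without the second. Without the first DMSO library, the median of the 10 licensing genes was -0.42. No gene of these 3 lists passed the adjusted threshold in edgeR.

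**Figure D4:**
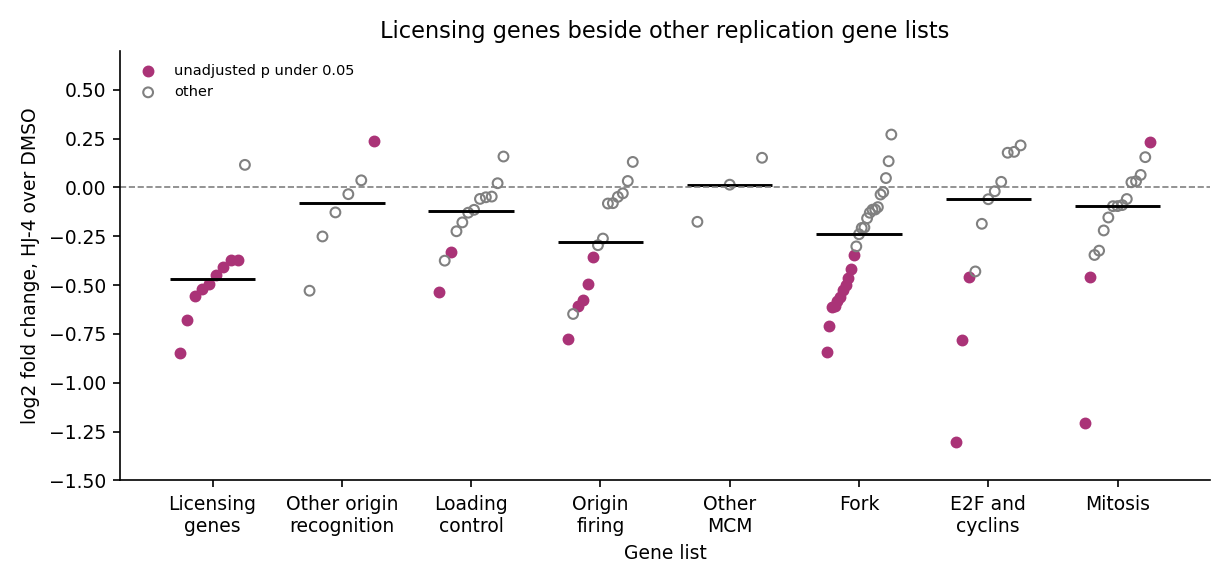
Log2 fold changes, HJ-4 over DMSO, of the licensing genes and of 7 further gene lists, with filled points for genes with an unadjusted p under 0.05 in edgeR and a black line for the median of each list. In the licensing list 9 of 10 points are filled, all lower, where 7.93% of all tested genes were lower at that p. The median of that list is -0.47, and the medians of the other lists lie between -0.28 for origin firing and 0.01 for the other MCM genes.

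The spread between replicates of the licensing genes moved with both the base composition and the length of their transcripts. MCM6, with the lowest GC content of the 10 at 43.2%, was higher in the second DMSO library than in the first by 0.54 on the log2 scale, and CDT1, with the highest at 64.3%, was lower there by a log2 ratio of -0.21. Over the 10 genes, Pearson's r of GC content was -0.65 with the log2 ratio of the DMSO replicates, 0.75 with that of the HJ-4 replicates and -0.45 with the log2 fold change, and over 13995 tested genes it was -0.22, 0.15 and -0.05. For transcript length over the 10 genes, r was 0.41 with the DMSO ratio, -0.67 with the HJ-4 ratio and 0.25 with the log2 fold change. Which of these properties bears on the spread was not tested. These values describe genes within the same libraries, which are not independent. With trends in GC content and length removed, a fit added after the data were seen, the same 9 genes were lower at an unadjusted p under 0.05. In that fit 9.51% of all tested genes were lower at that p. The median of the 10 was -0.46, with MCM6 at 0.08.

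**Figure D5:**
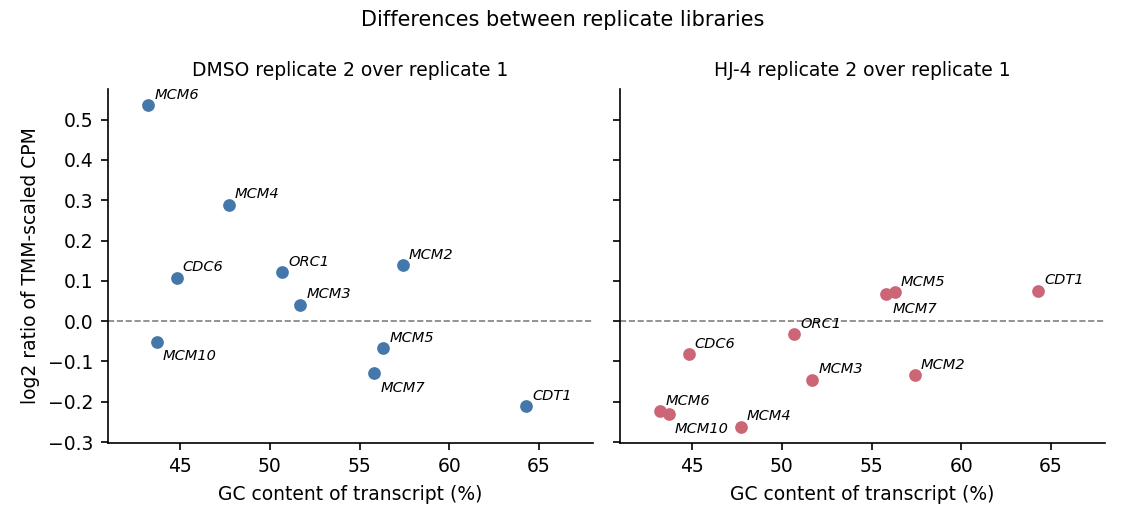
Log2 ratio of replicate 2 over replicate 1 for the 10 licensing genes, in DMSO on the left and in HJ-4 on the right, against the GC content of each transcript (%). MCM6 is highest on the left at 0.54, and MCM4, MCM10 and MCM6 are lowest on the right at -0.26, -0.23 and -0.22, while CDC6, also of low GC content, is at -0.08.

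The 5 genes whose profile over the 4 libraries was nearest to the mean of the licensing genes, among 9999 genes averaging at least 10 CPM, were FANCA, BRD3OS, MLLT3, UBE2V1 and CHAMP1. The nearest, FANCA, a component of the Fanconi anaemia core complex, was at 44.5 and 46.6 CPM in DMSO and at 35.1 and 32.3 CPM in HJ-4, at a Euclidean distance of 0.03 in centred log2 CPM. With 4 libraries such a likeness is a description. The nearest of the licensing genes themselves, CDC6, was at a distance of 0.09 with 22 other genes closer, and MCM6 was at 0.68 with 7680 other genes closer.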

How the data were processed

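RNA of HCT116 cells was sequenced in 2 DMSO and 2 HJ-4 libraries. The authors deposited raw counts, whole numbers per Ensembl gene ID, with no normalization. Alignment to GRCh38 with STAR, counting with featureCounts and TPM scaling are described in the methods, whereas HISAT2, RSEM and bedtools, beside FastQC and Trimmomatic, are listed in the submitters' processing notes. These sources name different counters, and which of them made the table was not settled here. The annotation and strand setting are not given in the sources used here, which bears on genes that overlap others. The methods describe biological triplicates, and 2 libraries per condition were analysed here. Columns were matched to samples by library name. Symbols, coordinates and transcript lengths were taken from GENCODE version 44, in which 20148 of 20263 IDs matched.

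Genes kept by filterByExpr (14044) were scaled by TMM and tested with edgeR 4.0.16 (glmQLFit and glmQLFTest, condition only, R 4.3.3), with Benjamini-Hochberg adjustment over all genes tested. The study names limma, and edgeR was used because the values are counts. Standard errors were computed from the F statistics. The procedure was also run on counts simulated from the means and dispersions of these data. The planted changes were larger in size than that of any member, so the run does not bear on changes as small as those reported. Total counts were 31120459 and 29769568 in DMSO and 34359889 and 33762230 in HJ-4, and edgeR estimated a common biological coefficient of variation of 0.157.

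Alternative settings comprised scaling by total counts or by DESeq2 size factors, dropping the filter or raising it to a mean of 5 CPM, adding a replicate block, omitting 1 library at a time, DESeq2's Wald test (version 1.42.0) and limma-voom (limma 3.58.1). After the data were seen, limma on log2(TPM + 1), a robust fit and removal of trends in GC content and length were tried as well. The members and the lists (origin recognition, loading control, origin firing, other MCM genes, fork, E2F factors and cyclins, mitosis and cell type markers) were chosen with earlier results of these data known. Named were all members, the genes of the pathway lists with an unadjusted p under 0.05 or, beyond these, at most the 3 smallest p of a list, the 2 smallest p of each comparison list (fork, E2F factors and cyclins, and mitosis), and the 5 nearest profiles by Euclidean distance.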

Additional observations from a re-analysis of the deposited data

How the results depend on the processing

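Over 14 alternatives, the log2 fold changes of MCM2, MCM3, MCM4, MCM5, MCM7, MCM10, ORC1, CDC6 and CDT1 stayed negative. All drew on the same libraries, in which these genes were already lower in both HJ-4 libraries, so the sign could hardly change. The range was from -0.91 to -0.72 for ORC1 and from -0.52 to -0.26 for MCM10, which came nearest to 0. MCM6 was -0.13 without the first DMSO library and 0.41 without the second, the ends of its range. No member was called by edgeR or limma under these settings, and 5 were called by DESeq2's Wald test, whose adjusted p for ORC1 was 1.2e-05 against up to 0.45 elsewhere. The number of members lower at an unadjusted p under 0.05 was 5 to 8 when 1 library was left out. With the replicate block, 9 members were lower at an unadjusted p under 0.05, as were 5.89% of all tested genes, with a member median of -0.47. The replicate differences of the DMSO and the HJ-4 libraries had a correlation of -0.043, which does not settle whether replicate numbers pair the libraries. The block moved the number of all genes called from 7 to 31. That number was 574 with DESeq2, 88 and 34 without the first and second DMSO library, 0 without either HJ-4 library (466 and 643 genes lower at an unadjusted p under 0.05), 56 with limma on log2(TPM + 1), 46 with the robust fit, 27 with the trends removed and 12 with no filter. The causes were not tested. Each member had at least 233 counts in each library.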
